A study of Mus musculus with 4 samples.

Results

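The stefin A and cystatin genes described here are 6 genes taken by symbol from the 32285 genes of the deposited count matrices. They are Stfa2 (ENSMUSG00000022902), Stfa2l1 (ENSMUSG00000059657), Cstdc4 (ENSMUSG00000079597), Cstdc5 (ENSMUSG00000071561), Cstb (ENSMUSG00000005054) and Cst3 (ENSMUSG00000027447). They were selected on measured values: their level in neutrophils and other cells, and their level under tamoxifen against placebo. Those 2 patterns are therefore given as a description. The pattern between neutrophil states, which is tested, was not among those named for the choice. Earlier results of these data were known when the genes were chosen, so full independence of that test is not established. Lungs came from 4 female MMTV-PyMT mice of the FVB/NJ strain, 13 weeks old, which all carry the polyoma middle T transgene under a promoter that is active mainly in mammary epithelium. Each mouse had carried a pellet for 5 weeks from 8 weeks of age: the 2 placebo mice a placebo pellet, the 2 tamoxifen mice a pellet of 5 mg tamoxifen that releases over 60 days. Perfused whole lungs were dissociated, and each mouse gave 1 library of single cells by the 10x Genomics 5' gene expression assay, in which each unique molecular identifier (UMI) stands for 1 captured RNA molecule. The mouse was the replicate, with n = 2 per group, so the spread between mice is known only roughly.

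Stefins and cystatins are small proteins that block papain-like cysteine proteases, above all the lysosomal cathepsins. Stefins, among them the stefin A proteins and stefin B (cystatin B, from Cstb), stay inside the cell and meet proteases that leak into the cytosol, whereas cystatin C, from Cst3, is secreted and is made in quantity by dendritic cells and macrophages. Mice carry a cluster of stefin A gene copies where humans have a single CSTA gene, and mouse neutrophils are a known site of their expression. Neutrophils mature in the bone marrow, where the secondary granule genes Ngp, Camp and Ltf are transcribed at an intermediate stage and silenced before the cell enters the blood.

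All 4 stefin A members lie in 1 locus on chromosome 16 (mm10, GENCODE M21). In order along the chromosome they are Stfa2l1 (chr16:36156811-36161953, plus strand), Cstdc4 (chr16:36184212-36188111, plus strand, named Gm5483 in that annotation), Cstdc5 (chr16:36359382-36367748, minus strand, named BC100530 there) and Stfa2 (chr16:36403992-36408457, minus strand). They span 252 kb, within a stretch of 335 kb that holds 10 annotated genes of the family. Cstb (chr10:78425669-78427622, plus strand) and Cst3 (chr2:148871722-148875692, minus strand) lie apart from it. RefSeq promoters were found for 5 of the 6 members. The sequences upstream of the 4 stefin A genes are shown because these copies were found to differ between neutrophil states. They are from RefSeq's GRCm38.p6 table, read 5' to 3' on the strand of the gene, and stop where either annotation starts the gene. Capitals mark a CCAAT box on the opposite strand.
Stfa2l1, bases 250 to 1 before its start, chr16:36156561-36156810: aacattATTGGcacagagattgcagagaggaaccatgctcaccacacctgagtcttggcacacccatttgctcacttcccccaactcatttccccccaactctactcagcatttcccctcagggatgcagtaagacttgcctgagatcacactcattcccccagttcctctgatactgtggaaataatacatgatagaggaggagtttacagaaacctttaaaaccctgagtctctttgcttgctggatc
Stfa2, bases 250 to 95 before its RefSeq start, chr16:36408458-36408613, minus strand: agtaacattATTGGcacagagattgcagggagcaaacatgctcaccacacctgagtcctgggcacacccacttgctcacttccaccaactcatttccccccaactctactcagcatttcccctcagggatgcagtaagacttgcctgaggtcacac
Cstdc4, bases 250 to 1 before its start, chr16:36183962-36184211: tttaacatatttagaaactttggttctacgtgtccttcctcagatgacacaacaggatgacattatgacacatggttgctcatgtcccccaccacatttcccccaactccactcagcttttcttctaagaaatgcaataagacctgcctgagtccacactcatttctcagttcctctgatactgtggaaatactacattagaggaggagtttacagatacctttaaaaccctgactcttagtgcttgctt
Cstdc5, bases 250 to 179 before its RefSeq start, chr16:36367749-36367820, minus strand: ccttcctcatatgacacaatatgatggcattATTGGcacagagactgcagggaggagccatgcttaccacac
Over the whole 250 bases, the upstream sequences of Stfa2 and Stfa2l1 were 89.4% identical in a global alignment, and the other 5 pairs of members were 65.1% to 72.9% identical. Each window was searched on both strands for 4 motifs. The first was CCAAT. The second was the TATA box in the form TATAAA. The third was TTNNGCAA, a form bound by C/EBP factors, and the last was GAGGAAGT, a form bound by PU.1. None of the matches overlapped another. CCAAT was found on the opposite strand in Stfa2l1 (bases 244 to 240 before the start), Stfa2 (241 to 237) and Cstdc5 (219 to 215), and in 33.8% of the 32851 promoters of the table. TTNNGCAA was found in Cstdc5 alone of the 4, at bases 88 to 81 before the start and so outside the printed stretch, and in 9.56% of all promoters. TATAAA and GAGGAAGT, held by 12.4% and 2.44% of all promoters, were in none of these 4 windows. A match is a run of letters and not a measured binding site.

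Because these copies share stretches of sequence, the reads of one could be counted for another or dropped as ambiguous. In the longest GENCODE transcript of each, the share of 90-base windows within the first 300 bases that occur in no transcript of the other annotated copies was 96.2% for Stfa2l1, 92.9% for Cstdc4, and 100% for Cstdc5 and Stfa2. Over the whole transcript the share was 97.6% for Stfa2l1, 99.2% for Cstdc4, 83.4% for Cstdc5 and 97.9% for Stfa2. RefSeq starts Cstdc5 and Stfa2 further inside the gene than GENCODE does, and which start these cells use was not tested. The longest run shared letter for letter between 2 members was 97 bases, between Stfa2l1 and Stfa2. With copies outside the members Cstdc5 shared longer runs, 138 bases with Cstdc6 and 128 with Stfa1. These sequences are of the C57BL/6J reference, and how the FVB/NJ copies differ from them was not tested, so a value for a single stefin A gene carries that uncertainty.

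Of the cells, 28475 were kept (6674 to 7484 per mouse), at a median of 2626 to 4064 UMIs. Clustering without the stefin and cystatin genes gave 81 clusters. Fixed marker genes named 20 of them neutrophil-like, 11707 cells in all. Neutrophil-like cells made up 31.6% and 58.0% of placebo cells and 35.3% and 40.9% of tamoxifen cells, at median depths of 2120.5 and 3769.5 UMIs and of 2836 and 2590 UMIs. Placebo 1 was thus the shallowest and placebo 2 the deepest library in these cells. Another 1973 cells in 13 clusters stayed unnamed, and 395 barcodes of kept cells occurred in more than 1 library. Classes are called "-like" because they rest on markers alone.

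The 4 stefin A genes were transcripts of neutrophil-like cells. These cells held 91.8% of all Stfa2 UMIs (5159 in total), 87.8% of Stfa2l1 (29980), 89.0% of Cstdc4 (16691) and 90.2% of Cstdc5 (23587). They held only 21.5% of the 24067 Cstb UMIs and 6.75% of the 570610 Cst3 UMIs. In each of the 4 mice, the neutrophil-like share of the summed stefin A UMIs lay between 83.2% (tamoxifen 2) and 92.0% (placebo 2). For every stefin A member the lowest neutrophil mouse lay above the highest mouse of the next class, the platelet or megakaryocyte-like cells. Below that class, neighbours in the order overlapped in their ranges over mice.

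The low stefin A signal elsewhere was set beside S100a8 and S100a9, the calgranulin genes, which neutrophils express at a high level, and beside Retnlg and Csf3r, further neutrophil genes. Taken over the 20 other classes with at least 20 cells per mouse, the summed stefin A level was a median of 2.69% of that in neutrophil-like cells of the same mouse. The lowest class was at 0.643% and the highest, platelet or megakaryocyte-like, at 17.8%. The corresponding medians were 2.25% for S100a8 and 2.14% for S100a9, with highest classes at 13.8% and 15.9%, also the platelet class. For Retnlg the median was 1.43%, and for Csf3r 3.05%. The platelet values ranged widely over mice, from 2.73% in placebo 2 to 41.3% in placebo 1 for the stefin A genes and from 7.39% to 20.7% for S100a8. The median of the stefin A genes thus lay between those of Retnlg and Csf3r; a difference between these genes was not tested.

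**Figure D1:**
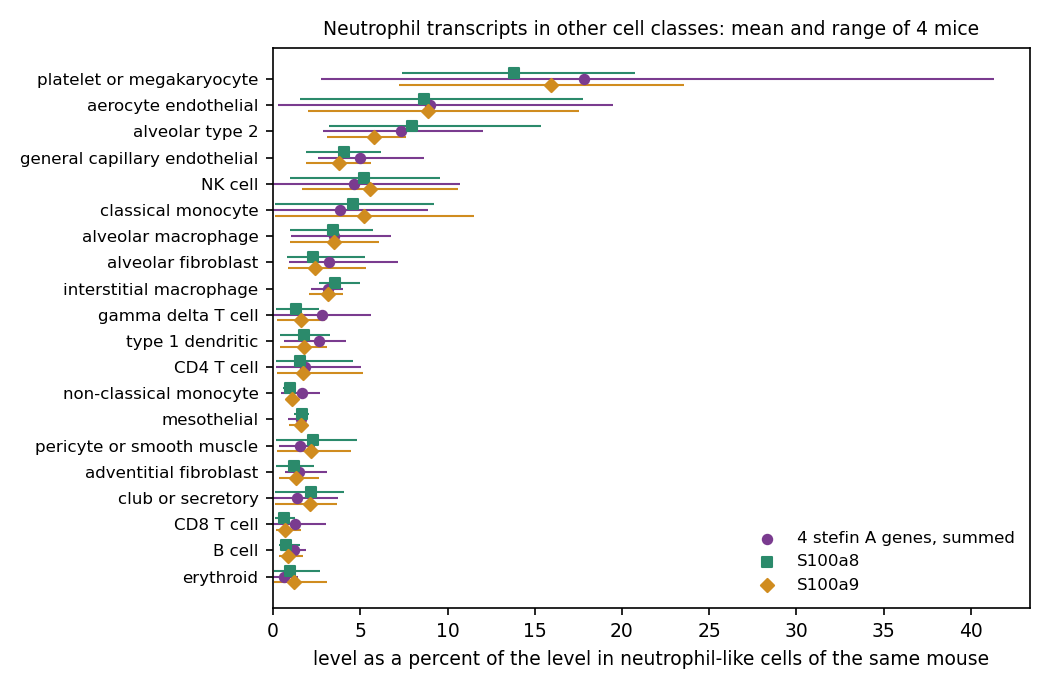
Level of the 4 summed stefin A genes, S100a8 and S100a9 in 20 other cell classes, as a percent of the level in neutrophil-like cells of the same mouse (x axis). Points are means and lines the range of 4 mice; the class means run from 0.643% to 17.8% for the stefin A genes and from 0.599% to 13.8% for S100a8, and the platelet class is the highest of both.

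Per cell, with each cell thinned to 500 UMIs so that depth is equal, at least 1 stefin A UMI was found in 25.1% (95% Clopper-Pearson interval 23.4% to 26.9%) of neutrophil-like cells in placebo 1 and 35.7% (34.2% to 37.2%) in placebo 2. In tamoxifen 1 the share was 38.0% (36.0% to 39.9%), and in tamoxifen 2 it was 34.9% (33.2% to 36.6%). No kept cell was too shallow for this. Unthinned, the shares were 47.6%, 66.0%, 65.9% and 61.8% in the same order, and intervals cover counting error only. Among all other kept cells the thinned shares were 1.33% in placebo 1, 5.02% in placebo 2, 2.14% in tamoxifen 1 and 4.19% in tamoxifen 2. These cells include the 1973 unnamed ones, some of whose clusters, such as 32 and 39, were left unnamed for signs of neutrophils. The unnamed cells held 487, 1653, 1007 and 1895 stefin A UMIs in the same order of mice. The shares are therefore not those of other cell types alone. B cell-like cells, a type that should lack these genes, gave 0 of 550 cells in placebo 1, which allows a share of cells with a UMI of up to 0.545% (3 counts of the cells; the upper Clopper-Pearson bound is 0.668%), and at most 0.781% in another mouse. Unthinned at a median of 2490.5 to 4036 UMIs, B cell-like cells reached 0.364% to 3.48%. The tamoxifen and placebo mice differed by 6.01 percentage points in neutrophil-like cells (pooled SD 5.52) and by -0.009 in the other cells (pooled SD 2.11). An exact permutation test, two-sided, gave p = 0.667 and p = 1; with 2 mice against 2 it cannot go below 0.333.

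Under tamoxifen, no member passed the adjusted test against placebo in neutrophil-like cells. Levels are in UMIs per 10000 UMIs of the summed neutrophil-like cells of a mouse. Cstdc4 was at 2.37 in placebo 1 and 3.48 in placebo 2, and at 4.58 in tamoxifen 1 and 3.85 in tamoxifen 2, the only member whose groups did not overlap. That is a description of the gene set as it was chosen: across all 8563 genes tested, 12.8% had both tamoxifen mice above both placebo mice. Stfa2l1 was at 4.94 and 6.68 under placebo and at 7.22 and 6.16 under tamoxifen, and placebo 1 was the lowest. Cstdc5 was at 2.13 and 6.44 under placebo and at 5.73 and 4.09 under tamoxifen. The placebo mice were thus the lowest and the highest of the 4. Stfa2 was at 0.428 and 1.58 under placebo and at 1.11 and 0.789 under tamoxifen, in the same order of mice as Cstdc5.

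**Figure D2:**
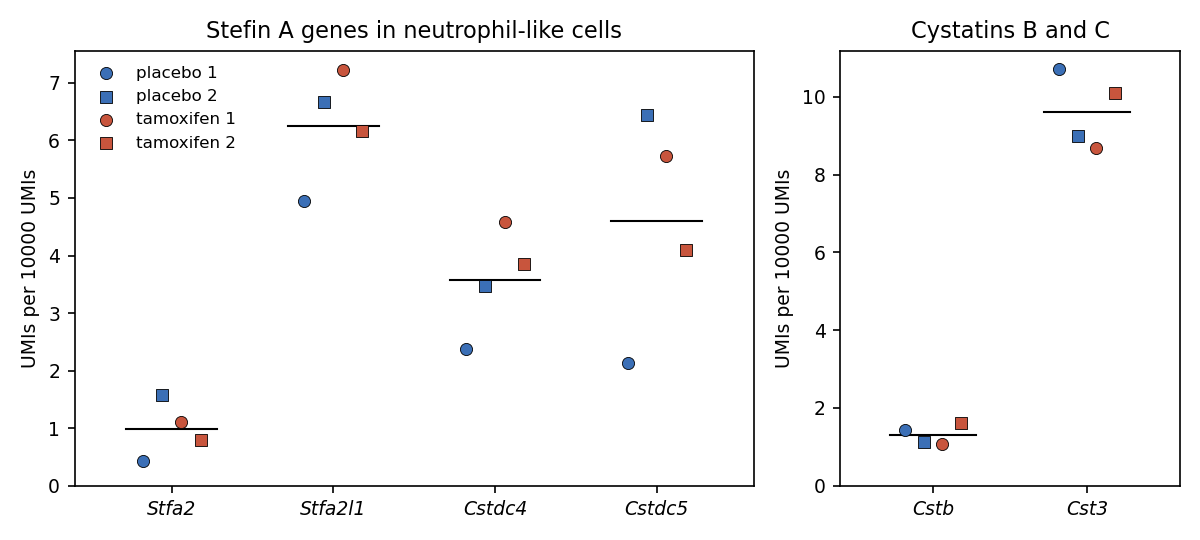
Levels of the 6 members in neutrophil-like cells, in UMIs per 10000 UMIs (y axis), with 1 point per mouse and a line at the mean of the 4 mice. Placebo 1 is the lowest mouse for all 4 stefin A genes, and the groups separate for Cstdc4 only.

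Of the 2 cystatins, Cstb, whose protein is the general intracellular stefin, was at 1.43 and 1.12 under placebo and at 1.08 and 1.62 under tamoxifen. Cst3 was at 10.7 and 8.99 under placebo and at 8.69 and 10.1 under tamoxifen. Both genes overlapped between the groups.

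In edgeR's quasi-likelihood test with Benjamini-Hochberg adjustment, 0 of the 8563 genes passed an adjusted p of 0.05 (0%), 220 had an unadjusted p under 0.05, and DESeq2 called 1. The log2 change of tamoxifen over placebo was 0.62 ± 0.19 (SE) for Cstdc4, 0.30 ± 0.17 for Stfa2l1, 0.29 ± 0.39 for Cstdc5 and -0.01 ± 0.43 for Stfa2. For Cstb it was 0.18 ± 0.20 and for Cst3 0.03 ± 0.16. These values depend on which placebo mouse is used. Without the filter on low counts, where 0.101% of genes were called higher, Cstdc4 passed (0.63, adjusted p = 0.015). Without placebo 2, in a fit that called 70 genes (0.788%; 0.405% higher), Cstdc4 was higher by 0.92, Cstdc5 by 1.29 and Stfa2 by 1.24, each past the threshold. Without placebo 1, in a fit that called 217 genes (2.4%; 1.28% lower), Stfa2 changed by -0.60, past the threshold, and Cstdc5 stood at -0.26. In both fits the lone placebo mouse is assumed to vary like the tamoxifen mice.

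The neutrophil states, in contrast, differed in their stefin A genes, and the copies went in opposite directions. Granule-high neutrophil-like cells, with at least 1% of their UMIs from Ngp, Camp and Ltf, numbered 16 in placebo 1, 81 in placebo 2, 23 in tamoxifen 1 and 18 in tamoxifen 2. Granule-low cells, with under 0.2%, numbered 2345, 3716, 2375 and 3021. Cstdc5, Stfa2 and their neighbours Stfa3, Cstdc6 and Stfa1 were higher in granule-high cells, while Stfa2l1, Cstdc4 and Csta3 were lower; the call on Stfa2l1 is the least stable, as given with the limits. The split used no stefin or cystatin gene. All values come from the edgeR quasi-likelihood test on UMI sums per mouse and state with the mouse as a block, adjusted over the 6870 genes tested, and levels are TMM-scaled CPM, a count set against its library's total.

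Cstdc5 had 632 CPM in granule-high against 194 in granule-low cells of placebo 1, 1225 against 534 in placebo 2, 1820 against 518 in tamoxifen 1 and 1290 against 382 in tamoxifen 2. Every mouse was higher in granule-high cells, and the log2 change was 1.61 ± 0.16 (SE, adjusted p = 2.4e-13). Stfa2 had 59.8 against 41.0 CPM, 232 against 135, 301 against 104 and 272 against 71.7 in the same order of mice. It was again higher in 4 of 4 mice, with a log2 change of 1.24 ± 0.18 (adjusted p = 3.1e-08).
Cstdc4 went the other way, with 133 CPM in granule-high against 231 in granule-low cells of placebo 1, 171 against 327 in placebo 2, 224 against 452 in tamoxifen 1 and 317 against 387 in tamoxifen 2. It was lower in granule-high cells of 4 of 4 mice, by a log2 change of -0.77 ± 0.17 (adjusted p = 0.00013). Stfa2l1, whose upstream sequence is the near match of Stfa2, had 346 against 481 CPM, 491 against 643, 521 against 737 and 517 against 624. It too was lower in 4 of 4 mice, by -0.41 ± 0.15 (adjusted p = 0.028), but with cells thinned to 500 UMIs it stood 0.09 above the median of all genes. Of all genes tested, 39.4% were called, 18.5% higher and 21% lower, so a call by itself sets no gene apart; 19.1% were higher and 30.9% lower in 4 of 4 mice.

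The mix of the 4 genes within the same cells does not depend on scaling. UMIs of Stfa2 and Cstdc5 over those of Stfa2l1 and Cstdc4 came to 1.44 in granule-high against 0.330 in granule-low cells of placebo 1 and 2.20 against 0.690 in placebo 2. In tamoxifen 1 the ratio was 2.85 against 0.523, and in tamoxifen 2 it was 1.87 against 0.448. The ratio was thus 3.19 to 5.44 times as high in granule-high cells, in 4 of 4 mice. The pairs of genes in the ratio were chosen after their directions were seen, so it is a description with no test. The 4 genes summed were also higher in granule-high cells of every mouse, at 12.7 against 9.81 UMIs per 10000 in placebo 1, 19.6 against 17.6 in placebo 2, 26.6 against 17.97 in tamoxifen 1 and 22.2 against 14.6 in tamoxifen 2.

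**Figure D3:**
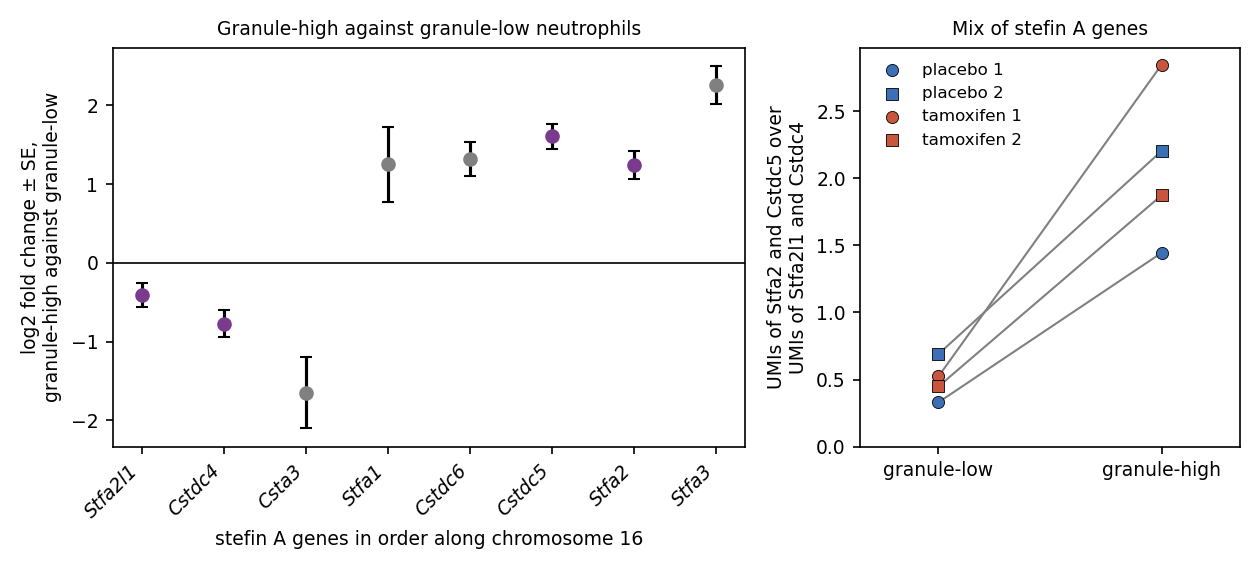
Left, log2 fold change ± SE of granule-high over granule-low neutrophil-like cells for 8 stefin A genes in their order along chromosome 16 (purple, members; grey, other copies); the first 3 lie below 0 and the other 5 above, though Stfa2l1 stands 0.09 above the median of all genes when cells are thinned. Right, UMIs of Stfa2 and Cstdc5 over those of Stfa2l1 and Cstdc4 in both states, 1 line per mouse; every line rises.

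The other tested copies of the locus divided in the same way along the chromosome, but some of them share sequence with Cstdc5. Stfa1 was 94.7% identical to Cstdc5 over the first 300 transcript bases, though 100% of its 90-base windows there were unique. Cstdc6 shared a run of 138 bases with Cstdc5, and 76.8% of its windows were unique. Whether the 233 Stfa1 and 1722 Cstdc6 UMIs include reads of Cstdc5 (23587 UMIs) was not tested. Of the 24 further family symbols looked for, 17 were in the matrices and 4 passed the count filter here. Stfa3 (2.26 ± 0.24, adjusted p = 7.5e-12), Cstdc6 (1.32 ± 0.21, 7.2e-07) and Stfa1 (1.25 ± 0.48, 0.031) were higher, and Csta3 (-1.65 ± 0.46, 0.0027) was lower. In chromosomal order the lower genes Stfa2l1, Cstdc4 and Csta3 came first and the higher genes Stfa1, Cstdc6, Cstdc5, Stfa2 and Stfa3 followed. Csta1 and Csta2, which lie on that first side, had 4 UMIs each in all cells and were not tested. Stfa1 and Stfa3 had no UMI in the 16 granule-high cells of placebo 1. Csta3 had none in granule-high cells of placebo 1 and of tamoxifen 2. It was at 7.72 CPM in those of placebo 2 and at 4.23 in those of tamoxifen 1, so its call rests on few UMIs there. The median log2 change of the 10 tested members and family genes was 0.57, against -0.11 over all genes. Of these 10, 5 were called higher and 4 lower, where 18.5% of all genes were called higher and 21% lower.

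Of the cystatins, Cst3 was lower in granule-high cells, by -0.55 ± 0.16 (adjusted p = 0.0031), with 545 against 1048 CPM in placebo 1, 635 against 870 in placebo 2, 749 against 885 in tamoxifen 1 and 662 against 1023 in tamoxifen 2. Cstb did not pass the test (-0.10 ± 0.17, adjusted p = 0.69). Cstb had 86.4 against 140 CPM, 117 against 105, 93.1 against 110 and 161 against 163, so the mice did not share a direction.

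Depth limits these calls, since granule-high cells had a median of 7596 to 13543 UMIs and granule-low cells of 2111 to 3666.5. With every cell thinned to 500 UMIs the median of all 3595 genes tested moved to -0.74 and 11.3% were called (99 higher, 2.75%, and 309 lower). Cstdc5 (1.13, adjusted p = 0.025) and Stfa3 (2.57, 0.0010) passed there. Stfa2 (0.51, 0.62), Cstdc6 (0.45, 0.79), Stfa2l1 (-0.66, 0.29), Cstdc4 (-1.39, 0.074), Csta3 (adjusted p = 0.29) and Cst3 (-1.06, 0.055) did not. Set against that median, Stfa2 was at 1.26, Cstdc5 at 1.87, Cstdc4 at -0.65 and Cst3 at -0.32, but Stfa2l1 at 0.09. Thinned, the ratio of the gene pairs was 2.20, 3.26, 4.15 and 7.30 times as high in granule-high cells of the 4 mice, in the order above, on only 15, 70, 24 and 20 stefin A UMIs there, and moved by over 1.5 times in placebo 1 (from 4.38) and tamoxifen 2 (from 4.18). The call on Stfa2l1 also failed without placebo 2 (adjusted p = 0.12), without tamoxifen 1 (0.16), without tamoxifen 2 (0.065) and without the mouse block (0.070). That on Stfa1 failed with DESeq2 (0.17), without placebo 2 (0.48) and without tamoxifen 1 (0.057), and DESeq2 did not call Stfa3 (0.073).

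Genes of neutrophil state moved with this split and are given as its measure, beside the 18.5% of all genes called higher and 21% called lower. Of 18 listed genes not used for it, 7 were higher in granule-high cells, among them Cd177 (5.06 ± 0.18), Lcn2 (3.65 ± 0.19) and Mmp8 (3.20 ± 0.17), further granule genes, and S100a8 (1.63 ± 0.19). The other 11 were lower, among them the cytokine gene Il1b (-2.31 ± 0.20), the adhesion gene Icam1 (-2.39 ± 0.20) and the receptor genes Csf3r (-1.82 ± 0.17) and Cxcr2 (-1.04 ± 0.16). The proteases that stefins and cystatins inhibit went both ways. Of 11 listed, 7 were tested: Ctsc (1.43 ± 0.33), Ctsh (1.30 ± 0.25) and Ctss (0.84 ± 0.31) were higher, Ctsz (-1.05 ± 0.19) and Ctsb (-1.03 ± 0.17) were lower, and Ctsl (0.16 ± 0.42) and Lgmn (0.03 ± 0.51) did not pass. The 5 calls among 7 stand beside 39.4% of all genes called, and their median was 0.16, against -0.11 over all genes. The mice did not share a direction for Ctss. It was lower in granule-high cells of placebo 1 (26.6 against 28.3 CPM) and placebo 2 (23.2 against 40.3). It was higher in those of tamoxifen 1 (55.0 against 26.2) and tamoxifen 2 (222 against 29.9).

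The 20 neutrophil clusters, made without the stefin and cystatin genes, are a description, without a test, and show more than 2 states. The summed stefin A level ran from 26.2 UMIs per 10000 in cluster 26 (419 cells, led by Retnlg, S100a8, S100a9, Lcn2 and Ngp) to 6.03 in cluster 2 (1068 cells, led by Il1b, Ccrl2, Gadd45b and Icam1). Cluster 58, with the most Ngp, was at 20.1. That is below clusters 13 (24.9), 10 (24.3) and 12 (21.9), which have little Ngp. Cstdc4 was at 6.42 in its highest cluster, 12, which has almost no Ngp (0.183), and at 1.83 in cluster 58, the Ngp, Camp and Ltf cluster of 132 cells. Cstdc5 in contrast had its highest level, 11.9, in cluster 58, with 11.6 in cluster 26. Stfa2l1 peaked in cluster 13 at 9.03 and was at 4.16 in cluster 58. Cstdc4 and Stfa2l1 were thus highest neither in the Ngp-richest cluster nor in the clusters led by Il1b, since in cluster 2 they were at 0.770 and 3.98, below cluster 58, and in cluster 26, with the second highest Ngp, Cstdc4 was at 5.69. The ratio of Stfa2 and Cstdc5 to Stfa2l1 and Cstdc4 fell from 2.36 in cluster 58 through 1.19 in cluster 26 to 0.271 in cluster 2 and 0.262 in cluster 5.

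**Figure D4:**
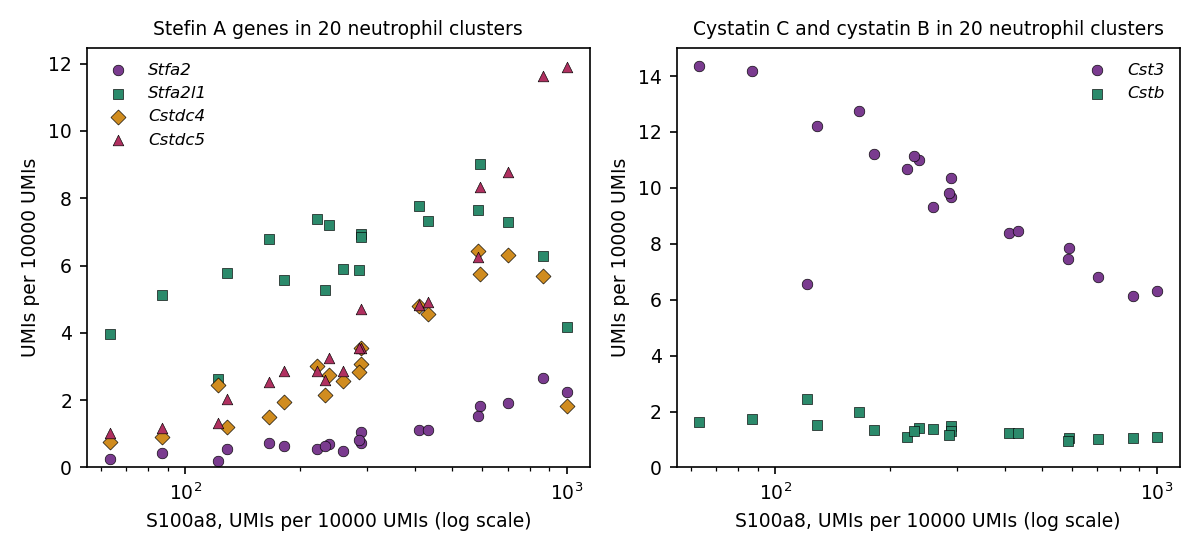
Levels of the members in the 20 neutrophil clusters (y axis, UMIs per 10000 UMIs) against the level of S100a8 in the same cluster (x axis, log scale). Cstdc5 and Stfa2 are highest at the right, Stfa2l1 and Cstdc4 fall again at the highest S100a8, and Cst3 falls from 14.3 at the left to 6.31 at the right.

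Cst3 ran against the stefin A genes over these clusters, from 14.3 UMIs per 10000 in cluster 2 to 6.15 in cluster 26. Cstb stayed within a narrower band, from 0.940 in cluster 12 to 1.97 in cluster 64, with 2.43 in cluster 79, which has only 13 cells. The clusters were not spread evenly over the mice: of the cells of cluster 26, 19 came from placebo 1, 262 from placebo 2, 83 from tamoxifen 1 and 55 from tamoxifen 2, and cluster 58 held 15, 82, 18 and 17. Placebo 1, with the lowest stefin A levels, and placebo 2, with the highest Stfa2 and Cstdc5, are the mice with the fewest and the most cells in cluster 26. With granule-low cells alone, the tamoxifen changes of the members were nearly the same (0.60 for Cstdc4, 0.31 for Cstdc5 and -0.03 for Stfa2). Those cells were 2345 of the 2366 neutrophil-like cells in placebo 1 and 3716 of 3868 in placebo 2. In tamoxifen 1 they were 2375 of 2420, and in tamoxifen 2 they were 3021 of 3053. That fit thus used nearly the same cells and cannot show what the make-up of the neutrophils adds. How much of the difference between mice comes from that make-up was not tested.

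Single neutrophils differed widely in their stefin A RNA. At 500 UMIs per cell, 62.0% to 74.9% of the cells of a mouse had no stefin A UMI, where a Poisson count with the same mean leaves 42.6% to 63.0% at 0. The tenth of the cells with the most UMIs held 54.6% to 66.5% of all stefin A UMIs. The variance was 2.49 to 4.40 times the mean for the 4 genes summed, but only 1.06 to 1.21 times for Cstb and 1.14 to 1.20 times for Cst3. Cst3 had a UMI in 33.8% to 40.1% of the thinned cells, a share near that of the stefin A genes, and was spread over cells nearly as a Poisson count. Thinned B cell-like cells also had a Cst3 UMI in 22.8% (tamoxifen 1) to 31.25% (placebo 2) of cells. The part of RNA from other cells in the Cst3 level of neutrophil-like cells was not tested.
The same neutrophil-like cells tended to hold several stefin A genes. Among thinned cells with a Stfa2 UMI, 31.3% to 62.9% also had Cstdc5, against 5.44% to 12.2% of cells without Stfa2. The correlation of the 2 genes over 2366 to 3868 cells was 0.17 to 0.48, and for Stfa2l1 with Cstdc4 it was 0.13 to 0.24. Cstb and Cst3 had correlations between -0.08 and 0.02 with each stefin A gene. These are descriptions over cells that share a library and a depth.

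The genes whose levels followed the summed stefin A genes over neutrophil-like cells of at least 1000 UMIs, averaged over the 4 mice and among 1998 genes, were S100a8 (r = 0.24), S100a9 (0.22), Wfdc21 (0.21), Retnlg (0.21), S100a6 (0.18), R3hdm4 (0.15), Pglyrp1 (0.15) and Lcn2 (0.14). The most opposed were Junb (-0.14), Zfp36 (-0.14), Gadd45b (-0.14), Nfkbia (-0.14) and Dusp1 (-0.13), genes of the immediate early and NF-kB feedback kind. All are weak, in counts that are mostly 0, and the median over genes was 0.00351. The sign of each of these 13 correlations was the same in all 4 mice.

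Cstb had its highest level in alveolar macrophage-like cells, the phagocytes of the airspace. There it was at 12.0 and 12.4 UMIs per 10000 in the placebo mice and at 13.4 and 15.3 in the tamoxifen mice, a mean of 13.3 ± 1.46 (SD, n = 4). Interstitial macrophage-like cells followed at 4.41 and 5.01, and 5.34 and 5.96 (mean 5.18 ± 0.65), without overlap of the classes. Classical monocyte-like cells (3.28 ± 0.59) came next and overlapped with mesothelial-like cells (2.53 ± 0.93). From there down to CD4 T cell-like cells (0.532 ± 0.043) each of the 21 classes overlapped with its neighbour, and neutrophil-like cells (1.31 ± 0.26) ranked 10. Over the classes, the genes most like Cstb among 4782 were Cib2 (r = 0.91), Lamtor4 (0.86), Pla2g15 (0.84), Renbp (0.82) and Idh1 (0.81), each highest in alveolar macrophage-like cells.

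Cst3 was highest in type 1 dendritic-like cells, the cross-presenting dendritic cells. Its level there was 423 and 367 UMIs per 10000 under placebo and 367 and 348 under tamoxifen, a mean of 376 ± 32.1 (SD, n = 4). Alveolar fibroblast-like cells were at 124 ± 16.7 and interstitial macrophage-like cells at 86.4 ± 12.7, and the ranges of these 3 classes did not overlap. Non-classical monocyte-like (72.4 ± 3.30) and adventitial fibroblast-like cells (63.0 ± 8.25) came next, each overlapping with the class above it. Alveolar macrophage-like cells, the leading class for Cstb, had only 16.8 ± 2.54 and ranked 11; neutrophil-like cells (9.62 ± 0.94) ranked 14 and CD8 T cell-like cells (1.68 ± 0.26) last of 21. The genes most like Cst3 over the classes were Tubb6 (r = 0.87), Grn (0.86), Egr1 (0.85), Fosb (0.84) and Naaa (0.81). The 2 cystatins thus divided the macrophages, Cstb with the alveolar and Cst3 with the interstitial class.

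**Figure D5:**
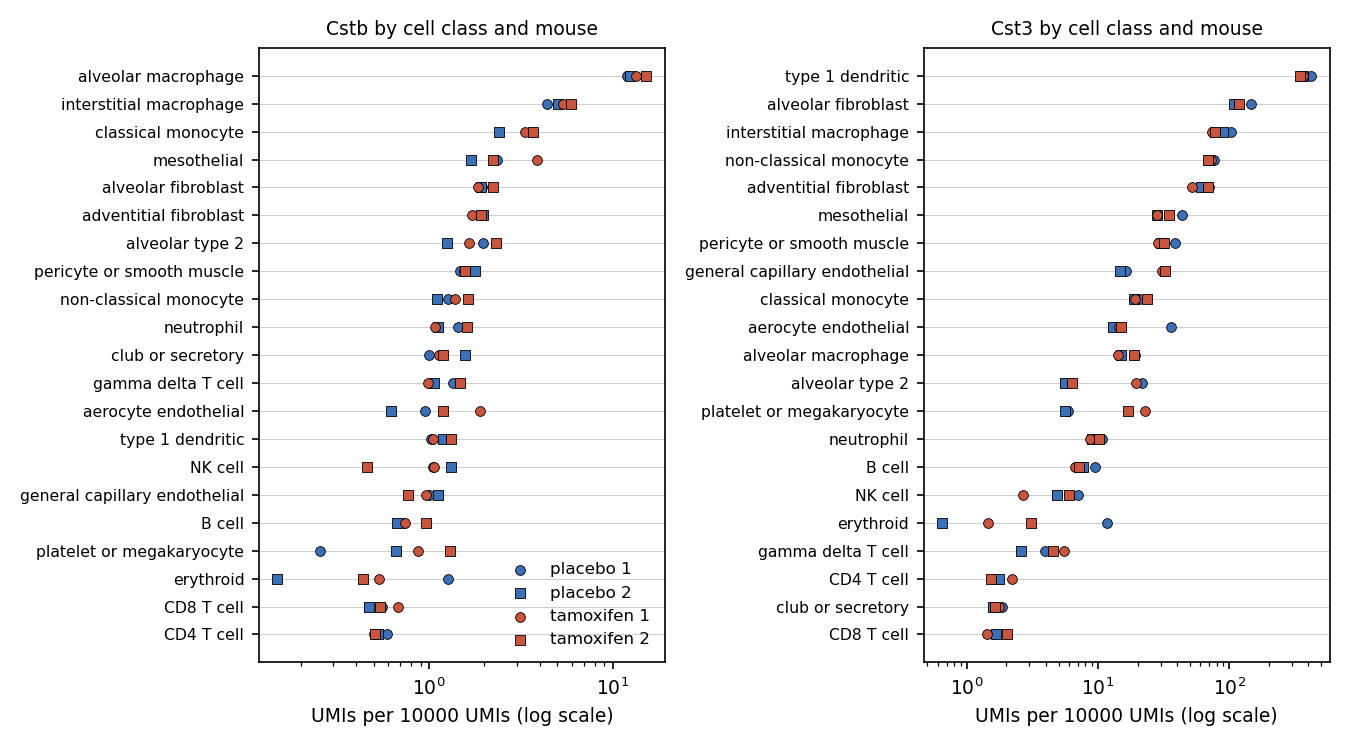
Levels of Cstb and Cst3 in UMIs per 10000 UMIs (x axis, log scale) in 21 cell classes ordered by their mean, with 1 point per mouse. Alveolar macrophage-like cells lead for Cstb (12.0 to 15.3) and type 1 dendritic-like cells for Cst3 (348 to 423).

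Under tamoxifen the members were also tested in alveolar macrophage-like, interstitial macrophage-like and non-classical monocyte-like cells, and no member passed in any; classical monocyte-like and type 1 dendritic-like cells were not tested. The edgeR quasi-likelihood test with Benjamini-Hochberg adjustment called 2 of 6427 genes (0.0311%) in alveolar macrophage-like, 1 of 9374 (0.0107%) in interstitial macrophage-like and 1 of 5465 (0.0183%) in non-classical monocyte-like cells. Cstb had a log2 change of 0.26 ± 0.18 (SE) in the first, 0.32 ± 0.17 in the second and 0.40 ± 0.21 in the third. In each of these classes both tamoxifen mice were above both placebo mice in CPM, as were 15.4%, 17.1% and 17.5% of all genes tested. Cst3 changed by 0.01 ± 0.20, -0.28 ± 0.18 and 0.01 ± 0.18 in the same classes. In interstitial macrophage-like cells it was at 103 and 90.1 UMIs per 10000 under placebo and at 74.5 and 78.5 under tamoxifen, without overlap, as for 16.3% of all genes tested in that direction (21.4% of the genes with at least 40 UMIs, by level). This class pools clusters that the mice filled unequally. Cluster 49, led by Retnla and Fcna, at a median of 12841.5 UMIs, held 40 and 9 placebo cells against 78 and 69 under tamoxifen, and cluster 14, led by C1qa, held 192 and 114 against 131 and 219. Within cluster 14 the level of Cst3 was 115 and 97.8 under placebo and 99.3 and 99.9 under tamoxifen, and within cluster 49 it was 56.4 and 41.0 against 50.0 and 40.4, so the groups overlapped in both. Marco, a macrophage receptor gene found within this class almost only in cluster 49, was the gene called in the whole class (2.11 ± 0.20, adjusted p = 0.031). Cstb was at 4.93 and 5.42 against 6.46 and 6.52 in cluster 14 and at 2.33 and 2.33 against 4.27 and 5.29 in cluster 49, without overlap in either. In cluster 75 of the class, with 14 and 4 against 7 and 12 cells, it was at 5.07 and 4.86 against 5.35 and 3.22, which overlapped. The share of all genes without overlap was not taken within clusters, so these values are a description.
Outside the myeloid classes, Cst3 in general capillary endothelial-like cells was at 16.4 and 14.7 UMIs per 10000 under placebo and at 30.8 and 32.5 under tamoxifen. The groups did not overlap, as for 13.8% of the genes with at least 40 UMIs in that class. The difference lay in cluster 40 of the class, at 10.9 and 12.5 against 86.2 and 62.9, and in few cells of it. In tamoxifen 1, 3 of its 70 cells held 1379 of the 1466 Cst3 UMIs, and in tamoxifen 2, 3 of 50 held 859 of 1252. Without the 3 cells with the most Cst3 in each mouse, cluster 40 was at 8.401 and 11.1 against 9.94 and 26.2. In cluster 25 of the class, at 18.9 and 16.1 against 20.2 and 17.1, the groups overlapped. In cluster 71, with 21 and 21 against 7 and 8 cells, both tamoxifen mice were lower, at 12.0 and 12.7 against 9.69 and 10.1. In the whole class Cstb was at 1.00 and 1.12 against 0.964 and 0.769, and 19.2% of those genes were lower in both tamoxifen mice. In B cell-like cells Cstb was at 0.731 and 0.673 against 0.739 and 0.968, and 11.7% of genes were higher in both tamoxifen mice. These were described and not tested. Over the 9 classes with at least 100 cells in every mouse, the groups did not overlap for Cstb in 5 (3 higher, 2 lower) and for Cst3 in 3 (1 higher, 2 lower). Of all genes tested, the share without overlap was 29.5% in neutrophil-like, 31.1% in alveolar macrophage-like, 33.4% in interstitial macrophage-like and 34.6% in non-classical monocyte-like cells.
Stefin A genes were low in the macrophages. Cstdc5 in alveolar macrophage-like cells had 17.4 and 31.2 CPM under placebo and 5.89 and 3.07 under tamoxifen, with an adjusted p of 0.22 that turned into a call without placebo 1 (0.0033, where 0.494% of genes were called lower) and with the replicate number as a block (0.015, where 0.218% were). Both tamoxifen mice were below both placebo mice, as for 15.7% of all genes tested. The UMIs behind these values were few. The 4 stefin A genes summed had 37 and 147 UMIs in alveolar macrophage-like cells under placebo and 16 and 21 under tamoxifen. Cstdc5 made up 43.2% and 24.5% of them under placebo and 31.25% and 9.52% under tamoxifen. S100a8 in the same cells, as a share of its neutrophil level, was at 2.55% and 5.71% under placebo and at 0.994% and 4.44% under tamoxifen. Retnlg, by the same measure, was at 1.15% and 4.46% against 0.194% and 1.14%, without overlap. Lcn2 had 23.9 and 507 CPM under placebo against 7.06 and 12.3 under tamoxifen, also without overlap. Il1b (925 and 1354 against 556 and 889) and Mmp8 (11.9 and 16.5 against 9.42 and 9.21) did not overlap either. Other neutrophil genes overlapped in CPM. They were S100a9 (1538 and 4545 against 663 and 3209) and Csf3r (77.1 and 140 against 57.7 and 84.4), among others. Cxcr2 (36.9 and 99.6 against 34.1 and 58.3) overlapped too, as did Retnlg by this measure (53.2 and 382 against 12.9 and 82.9). The part of neutrophil RNA in the Cstdc5 difference was not tested.

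The remaining family genes were sparse. Stfa1 (233 UMIs in all kept cells), Stfa3 (1330), Csta3 (812) and Cstdc6 (1722) were neutrophil transcripts, with 88.3% to 92.3% of their UMIs in neutrophil-like cells. None of these 4 passed the test between tamoxifen and placebo there. Cst7, which encodes cystatin F of cytotoxic lymphocytes, had 741 UMIs and was highest in NK cell-like cells (1.66 ± 0.21 UMIs per 10000, SD, n = 4), with CD8 T cell-like cells at 0.880 ± 0.125. Cst8 had 60 UMIs, of which 55 were in alveolar type 2-like cells, the surfactant cells of the alveolus. Cstdc2 had 61, of which 33 were in pericyte or smooth muscle-like cells, and Cst6 had 48. Cst9, Cst10, Cst11, Cst12, Cstl1 and Cstdc1 had no UMI, and Cst13 had 1.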

How the data were processed

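Lung cells of 4 mice were measured, 1 library each. The authors deposited UMI counts that were not normalized, 1 matrix per mouse. Cell Ranger 5.0.0 is given per the file headers, but Cell Ranger 8.0.1, with mm10, per the submitters' processing notes. Which version made the counts was not settled. The libraries held 32646505 to 37285982 UMIs.

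Cells with at least 250 genes, at most 15% mitochondrial UMIs and a Scrublet score of at most 0.25 were kept. The automatic threshold of Scrublet marked at most 114 cells of a library and was taken as failed. Cells were clustered in scanpy 1.11.5 (2000 variable genes without the stefin and cystatin genes, 40 principal components, Leiden resolution 4) and clusters named from marker lists.

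For each class, the sums of UMIs in each mouse entered edgeR 4.0.16 (R 4.3.3; TMM, filterByExpr, quasi-likelihood F test, Benjamini-Hochberg, threshold 0.05); DESeq2 1.42.0 was an alternative. The SE was derived from the F statistic. Cells were thinned to 500 UMIs for shares. Promoters were aligned globally.

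The members and lists were chosen with earlier results of these data known. Named genes were all members, all family genes with at least 10 UMIs, all listed proteases, state genes named for a value, and the genes most like the members. The mouse numbers of the 2 groups did not pair the mice. The tests were checked on simulated data.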

Additional observations from a re-analysis of the deposited data

Results flagged for a closer look

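The level of Cst3 stood in opposite directions in a pair of classes with at least 100 cells in every mouse. Under tamoxifen it was higher in both mice in general capillary endothelial-like cells, with a log2 ratio of group means of 1.03, and lower in both in interstitial macrophage-like cells, with -0.33, so the classes differed by 1.36. The difference was not tested, and both directions are shared by many genes (13.8% higher in the first class, 21.4% lower in the second). In the endothelial class it rested on a few cells of cluster 40, and in the macrophage class the groups overlapped within clusters 14 and 49. Marker genes of other classes were read in both. In the endothelial class the 6 type 1 dendritic markers summed to 1.21 and 1.07 UMIs per 10000 under placebo and to 3.02 and 3.42 under tamoxifen, with 5 of the 6 higher in both tamoxifen mice and none at 0. The 7 markers of the endothelial class itself summed to 113 and 118 against 104 and 90.7, with 5 lower and 0 higher. Alveolar fibroblast markers (5.54 and 10.1 against 5.29 and 10.00) and interstitial macrophage markers (4.28 and 7.61 against 7.85 and 5.01; Cd163 at 0) overlapped, and non-classical monocyte markers were at 19.2 and 21.4 against 18.5 and 18.4. In the interstitial macrophage-like class the non-classical monocyte markers were at 8.19 and 8.58 against 10.6 and 12.3 (4 of 7 higher, 0 lower) and alveolar fibroblast markers at 0.334 and 0.292 against 1.18 and 0.354 (4 of 6 higher). Its own markers were at 221 and 205 against 180 and 206 (4 of 9 lower, 1 higher), and type 1 dendritic markers at 2.45 and 2.54 against 2.28 and 2.26. The part of RNA or cells of other classes in these values was not tested.

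The level of Cstb was higher in both tamoxifen mice in B cell-like cells (log2 ratio of group means 0.28; 11.7% of genes were) and lower in both in general capillary endothelial-like cells (-0.29; 19.2% of genes were). The difference between the classes, 0.574, was not tested, and the B cell values nearly met (0.731 and 0.673 against 0.739 and 0.968). In all, 9 classes had at least 100 cells in every mouse, and the groups did not overlap for Cstb in 5 of them and for Cst3 in 3. Among all genes tested in the 4 classes of the model fits, 29.5% to 34.6% did not overlap.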

How the results depend on the processing

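The counts of genes called between tamoxifen and placebo are small and unstable. Of the 0 called in neutrophil-like cells there were 1 with DESeq2, 52 without the count filter, 1 with the replicate block, and 0 to 217 when 1 mouse was left out. In alveolar macrophage-like cells the 2 became 0 with DESeq2, 96 without the filter, 25 with the replicate block, 0 with the family genes kept for clustering, 0 at 500 genes per cell, 7 with equal cells per mouse and 0 to 75 when 1 mouse was left out. In interstitial macrophage-like cells the 1 became 10 with DESeq2, 0 without the filter, 0 with equal cells and 14 to 127 when 1 mouse was left out. In non-classical monocyte-like cells the 1 became 0 with DESeq2, 13 without the filter, 6 with the replicate block, 3 with the family genes kept, 0 with equal cells and 8 to 19 when 1 mouse was left out. The replicate block made Cstdc5 in alveolar macrophage-like cells a call and no other member in any class. Deviations of same-numbered mice correlated at -0.20 in neutrophil-like cells and at -0.05, 0.05 and 0.02 in the other classes, so the numbers do not pair the mice. A crossed replicate block, added after this was seen, called 4 genes in neutrophil-like cells.

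Between granule-high and granule-low cells, 2710 genes were called. The count was 1805 to 2646 when 1 mouse was left out, lowest without placebo 2, and 408 with cells thinned to 500 UMIs, where fewer genes were tested. DESeq2 called 2024, and 2793 were called with no replicate block. Of these calls 1269 were higher and 1441 lower, against 1140 and 2053 without the count filter, where the median of all genes moved to -0.62.

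Several small changes of the members reversed, and the cause was not tested. In neutrophil-like cells under tamoxifen, Stfa2 was at 0.0451 with DESeq2, 0.237 with the replicate block, 0.226 with the crossed one and 0.00695 with equal cells, and between -0.601 and 1.24 when 1 mouse was left out. Over the same omissions Cstdc5 ran from -0.257 to 1.29, Cst3 from -0.102 to 0.198 and Cstb from -0.143 to 0.450. In alveolar macrophage-like cells Cst3 was at -0.0138 without the filter, -0.00964 with the replicate block, -0.0463 with doublets kept, -0.0294 with the family genes kept and -0.0211 at 500 genes. With 1 mouse left out there, Cst3 ran from -0.296 to 0.248 and Stfa2l1 from -1.87 to 0.0412. In interstitial macrophage-like cells Cstdc4 was at -0.0693 with equal cells and ran from -0.172 to 0.572, Cstdc5 from -1.05 to 1.01 and Stfa2l1 from -0.00860 to 3.09. In non-classical monocyte-like cells Cst3 ran from -0.0806 to 0.112. Cstb between the granule states ran from -0.218 to 0.02004. The difference in the share of other cells with a Cstb UMI moved from 0.3499 to -0.359 percentage points in unthinned cells; of the summed stefin A genes, Cstb and Cst3 in neutrophil-like and other cells, the remaining 5 share differences moved by less than 1 SD between mice, though those of Cstb and Cst3 in neutrophil-like cells changed sign unthinned (to -0.134 and 0.380). Shares in the named classes alone were added after seeing the data, as were the values by cluster within the endothelial and interstitial macrophage-like classes.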
